A study of Mus musculus with 5 samples.

Results

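Cd163l1 and 5830411N06Rik are the mouse genes of the scavenger receptors Scart1 and Scart2, members of the CD163 family. They were taken by gene symbol from the count matrices of 5 single-cell libraries of γδ T cells, and both are among the 27998 genes counted. The cells had been sorted on a cytometer by their γδ T cell receptor chain, Vγ4 or Vγ6, and transcripts were counted from their 3' ends in droplets (Chromium, v2 chemistry), each molecule tagged with a unique molecular identifier (UMI). Ear skin gave a Vγ4 and a Vγ6 library, thymus and peripheral lymph node (pLN) a Vγ6 library each, all from C57BL/6 mice aged 8 weeks with no treatment in the labels, and the last library was a pool of Vγ6 cells. The pool joined pLN cells of TcrdCreER mice, thymus cells of ACT-FLPe mice and ear skin cells of TcrdH2BeGFP mice, aged 8 to 10 weeks, with no label that gives a cell its tissue. TcrdCreER and TcrdH2BeGFP are alleles at the T cell receptor delta locus that carry an inducible Cre recombinase and a nuclear green fluorescent protein, and ACT-FLPe is a transgene in which an actin promoter drives the Flp recombinase. Each group had 1 library, and the labels do not give the number of mice behind it.

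Scavenger receptor cysteine-rich (SRCR) receptors are surface or secreted proteins built from repeats of a cysteine-rich domain that can bind microbial and host ligands. In cattle the related WC1 receptors sit on γδ T cells, bind bacteria and act as co-receptors of the T cell receptor. IL-17-producing γδ T cells are programmed in the thymus by factors such as c-Maf, settle in skin and other barriers, and release IL-17A, IL-17F and IL-22 when IL-23 or IL-1 reaches them.

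The genes lie next to each other on mouse chromosome 7. Cd163l1 (ENSMUSG00000025461) spans chr7:140218267-140231145 and 5830411N06Rik (ENSMUSG00000054672) spans chr7:140247284-140300736 of GRCm38, both on the plus strand. A gap of 16138 bases separates them, and no other gene is annotated in it. The olfactory receptor genes on either side, Olfr524 and Olfr525, had 0 UMIs in all 5 libraries. The longest run of bases shared by the annotated protein-coding transcripts of the pair, 3 of Cd163l1 and 2 of 5830411N06Rik, was 23 bases, and 14 bases within their last 600 bases, the end that the kit reads.

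The windows before the start of each gene are shown because the neighbours had different levels across the libraries. They are the 250 bases upstream of the RefSeq start (GRCm38.p6), at chr7:140218017-140218266 for Cd163l1 and at chr7:140247051-140247300 for 5830411N06Rik, plus strand, 5′ to 3′, with matched motifs in capitals. The second window is 1 of 3 that the table holds for that gene, and it ends downstream of the annotated GENCODE start.

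Cd163l1: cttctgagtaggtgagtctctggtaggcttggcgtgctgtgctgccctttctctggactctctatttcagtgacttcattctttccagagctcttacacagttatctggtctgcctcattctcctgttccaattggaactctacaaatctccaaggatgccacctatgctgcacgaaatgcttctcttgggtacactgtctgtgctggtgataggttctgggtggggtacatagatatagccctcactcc

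5830411N06Rik: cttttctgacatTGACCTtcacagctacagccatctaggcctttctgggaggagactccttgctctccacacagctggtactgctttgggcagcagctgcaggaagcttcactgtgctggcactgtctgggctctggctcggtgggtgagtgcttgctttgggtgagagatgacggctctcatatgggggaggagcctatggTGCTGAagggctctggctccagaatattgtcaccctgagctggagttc

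The letters AGGTCA, a half-site of nuclear receptors, were found on the minus strand of the 5830411N06Rik window from base -238 to base -233, where the printed strand reads TGACCT. The letters TGCTGA, a MAF half-site, stood on its plus strand from base -48 to base -43. The Cd163l1 window held neither. The letters AACAAT (SOX), CTTTGA (TCF/LEF) and TGTGGT (RUNX) were in neither window on either strand. Of 27025 promoter windows of this length, 14.0% held AGGTCA, 15.9% TGCTGA, 9.67% AACAAT, 14.0% CTTTGA and 14.2% TGTGGT on either strand. A match of letters describes the sequence and is no evidence of binding.

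Barcodes with at least 200 detected genes and at most 10% mitochondrial UMIs were kept. They numbered 1178 cells with 1933221 UMIs in skin Vγ4, 687 with 793463 in skin Vγ6, 2517 with 6607432 in thymus, 1458 with 4210564 in pLN and 2006 with 2960908 in the pool. Median UMIs per cell ran from 1059 in skin Vγ6 to 2156 in thymus. All 12 markers of IL-17-type γδ T cells were detected in every library, and any pair of libraries shared between 2 and 13 cell barcodes. Levels are given as CPM, the gene's UMIs per 1e6 UMIs of the kept cells, with exact Poisson 95% intervals. Ratios carry exact conditional binomial 95% intervals and shares exact Clopper-Pearson 95% intervals, and all of these cover counting error only. Calls of higher or lower needed a ratio of at least 2-fold, an interval that leaves out 1, and at least 20 CPM on the higher side. Each group being 1 library, no difference could be tested against the spread between animals, since cells are not replicates.

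Cd163l1 was detected in all 5 libraries, and 5830411N06Rik mainly in skin Vγ4 cells. Cd163l1 stood at 153 CPM (136 to 171) in skin Vγ4, 768 CPM (708 to 831) in skin Vγ6, 285 CPM (272 to 298) in thymus Vγ6, 753 CPM (727 to 780) in pLN Vγ6 and 1129 CPM (1091 to 1168) in the pool. The pool was highest and skin Vγ4 lowest, and the intervals of skin Vγ6 and pLN overlapped. 5830411N06Rik stood at 385 CPM (358 to 414) in skin Vγ4, from 745 UMIs. In the Vγ6 libraries it had 2 UMIs in skin, which is 2.52 CPM (0.305 to 9.11), 216 in thymus, which is 32.7 CPM (28.5 to 37.4), 6 in pLN, which is 1.42 CPM (0.523 to 3.10), and 40 in the pool, which is 13.5 CPM (9.65 to 18.4). Its order was skin Vγ4, thymus, pool and then skin Vγ6 and pLN, whose intervals overlapped. In the pool 136 genes had more UMIs than Cd163l1, against 943 in skin Vγ4.

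**Figure D1:**
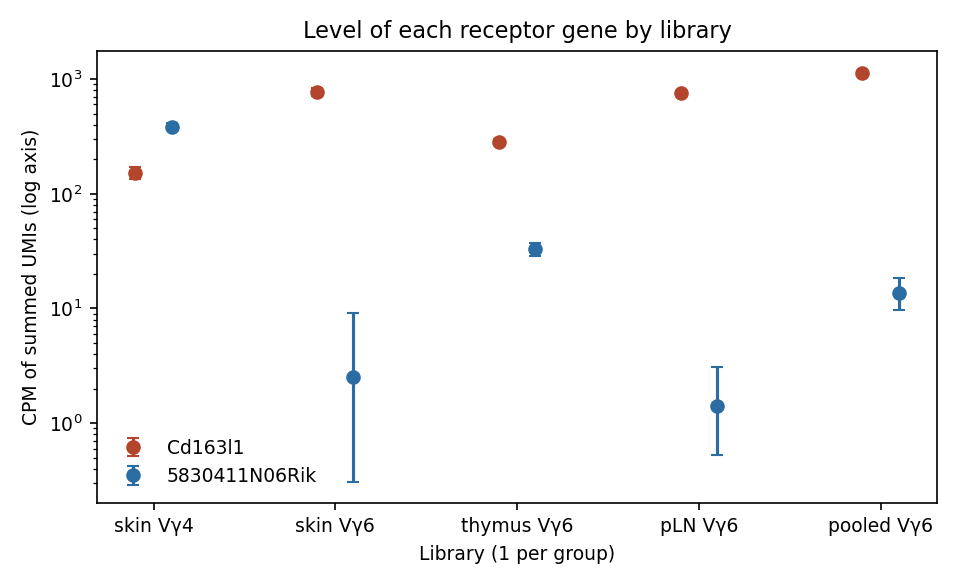
Level of each receptor gene in the 5 libraries, in CPM on a log axis, with exact Poisson 95% intervals as bars. Cd163l1 runs from 153 CPM in skin Vγ4 to 1129 CPM in the pool, while 5830411N06Rik is at 385 CPM in skin Vγ4 and at 1.42 to 32.7 CPM in the Vγ6 libraries.

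The genes differed in opposite directions between the Vγ4 and Vγ6 cells of ear skin. Cd163l1 was 5.03-fold lower (4.37 to 5.80) in skin Vγ4 than in skin Vγ6, and 5830411N06Rik was 153-fold higher (42.2 to 1265), a ratio that rests on 2 UMIs in skin Vγ6. Both passed the call rule, which 7.44% of the 4973 genes with 20 CPM in either library passed in this pair. The same tissue and digestion stand behind both libraries, and the sorted chain was the labelled difference.

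Between Vγ6 cells of different tissues, thymus stood apart from the periphery for both genes. In thymus against pLN, Cd163l1 was 2.65-fold lower (2.50 to 2.80) and 5830411N06Rik 22.9-fold higher (10.4 to 63.2). Both were called, as were 23.1% of 5703 genes. In skin Vγ6 against thymus, Cd163l1 was 2.70-fold higher (2.46 to 2.96) and 5830411N06Rik 13-fold lower (3.55 to 108), where 38.2% of 5656 genes were called. Without dividing barcodes, those with UMIs of at least 2 of 16 cell cycle markers, the log2 ratio of Cd163l1 between skin Vγ6 and thymus was 0.87, below the 2-fold limit. That mark of division is loose, and deeper cells meet it more easily. It was met by 1040 of 1458 pLN and 1351 of 2517 thymus cells, whereas Mki67 was detected in 24.7% of pLN and 7.43% of thymus cells. In skin Vγ6 against pLN, Cd163l1 was at a ratio of 1.02 (0.933 to 1.11) and 5830411N06Rik at 1.77 (0.175 to 9.89), neither of them called, where 46.4% of 5770 genes were. Skin cells were released by 75 minutes of collagenase at 37 °C and thymus cells enriched by 30 minutes of complement lysis at 37 °C, so tissue and preparation cannot be told apart.

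Of the other SRCR genes, Cd5 and Cd6 followed 5830411N06Rik in part. Cd163, the haemoglobin scavenger of macrophages, had 5 UMIs in thymus, 6 in the pool and 0 elsewhere. Cd5 and Cd6, SRCR receptors that restrain T cell receptor signals, were 2.80-fold (1.98 to 4.06) and 5.58-fold (3.96 to 8.07) higher in thymus than in pLN. In skin Vγ6 they were 10.6-fold (2.88 to 87.9) and 6.48-fold (2.95 to 17.8) lower than in thymus. These were the directions of 5830411N06Rik in the same pairs. In skin Vγ4, where 5830411N06Rik was highest, Cd5 had 2 UMIs and Cd6 had 4. Loxl2, a secreted lysyl oxidase with SRCR repeats, was 2.82-fold higher (2.27 to 3.48) in skin Vγ6 than in pLN. Lgals3bp, a galectin-binding glycoprotein, was 5.49-fold lower (3.44 to 9.33) in the same pair. Over all genes, 23.1% were called in thymus against pLN, 38.2% in skin Vγ6 against thymus and 46.4% in skin Vγ6 against pLN.

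The order of the libraries by cells with a UMI of Cd163l1 was not that by level, with pLN first. Cd163l1 had a UMI in 17.7% of cells (15.5 to 19.96) in skin Vγ4, 56.0% (52.2 to 59.8) in skin Vγ6, 35.0% (33.1 to 36.9) in thymus, 83.5% (81.5 to 85.3) in pLN and 67.1% (65.0 to 69.2) in the pool. With each cell thinned to 1000 UMIs these shares were 13.4%, 52.3%, 22.2%, 58.9% and 62.4% in the same order, so the pool rather than pLN held the highest share. Thinning left out shallower cells, which numbered 125 in skin Vγ4, 297 in skin Vγ6, 75 in thymus, 0 in pLN and 575 in the pool. The effect of depth was plain within pLN, where Cd163l1 was detected in 71.8%, 83.9% and 94.7% of cells from the shallowest to the deepest of 3 equal groups.

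5830411N06Rik had a UMI in 42.6% of skin Vγ4 cells (39.8 to 45.5), 0.291% of skin Vγ6 cells (0.0353 to 1.05), 6.79% of thymus cells (5.84 to 7.85), 0.412% of pLN cells (0.151 to 0.894) and 1.55% of pool cells (1.05 to 2.19). Thinned to 1000 UMIs the shares were 32.5% in skin Vγ4, 3.56% in thymus, 0.137% in pLN and 1.33% in the pool, and 0 of 390 cells in skin Vγ6, an exact interval of up to 0.941%. Free RNA in droplets can place a UMI in a cell that does not express the gene. Among 35 barcodes that had no CD3 UMI and at least 3 markers of another cell type (median 1340 UMIs), Cd163l1 was detected in 14.3% (4.81 to 30.3) and 5830411N06Rik in 2.86% (0.0723 to 14.9). The Cd163l1 share in skin Vγ4 lay within the interval for that gene, as did the 5830411N06Rik shares of all 4 Vγ6 libraries within theirs. These barcodes are too few to tell such shares from background, and they come from all 5 libraries. Of the 5 with Cd163l1, 3 were from the pool, where that gene is most abundant, and 1 from skin Vγ4. The 1 with 5830411N06Rik was among the 6 from skin Vγ4, where that gene is most abundant, while 0 of the other 29 had it.

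UMIs of Cd163l1 were spread unevenly over thymus cells. In thymus 458 of 2517 cells had at least 2 of its UMIs, and the highest cell had 11. The variance of its count over cells was 2.43 times the mean in thymus, against 1.15 to 1.89 times in the other libraries. 5830411N06Rik had at least 2 UMIs in 180 skin Vγ4 cells, 37 thymus cells and 5 pool cells, and in 0 cells of skin Vγ6 and pLN.

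Cells were then classed by which of the receptor transcripts they held. In skin Vγ4, 81 cells had both, 127 Cd163l1 alone, 421 5830411N06Rik alone and 549 neither. In thymus the counts were 32 with both, 849 with Cd163l1 alone, 139 with 5830411N06Rik alone and 1497 with neither. In the other libraries 5830411N06Rik was rare. Skin Vγ6 had 1 double-positive cell, 384 with Cd163l1 alone, 1 with 5830411N06Rik alone and 301 with neither, and the pLN counts were 5, 1212, 1 and 240 in that order. The pool had 13 double-positive cells, 1333 with Cd163l1 alone, 18 with 5830411N06Rik alone and 642 with neither. Multiplying the shares of cells positive for each gene gives 88.6 double-positive cells in skin Vγ4, 1.12 in skin Vγ6 and 5.01 in pLN, close to the numbers seen, and 59.9 in thymus and 20.8 in the pool, above the numbers seen.

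In thymus the receptors tended to sit in different cells. Cd163l1 was detected in 18.7% (13.2 to 25.4) of 5830411N06Rik-positive thymus cells and in 36.2% (34.2 to 38.2) of the negative ones, and thinned to 1000 UMIs in 5.75% (1.89 to 12.9) of the positive and 22.8% (21.1 to 24.5) of the negative ones. Its level was 79.7 CPM in 5830411N06Rik-positive and 301 CPM in negative thymus cells, a 3.77-fold lower level (2.74 to 5.35). Double-positive thymus cells were deep, with a median of 3204.5 UMIs, against 2280 for cells with Cd163l1 alone and 2130 for cells with 5830411N06Rik alone. No thymus cell had at least 2 UMIs of each gene, although 458 cells had 2 of Cd163l1 and 37 had 2 of 5830411N06Rik. Doublets were not removed.

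Cd163l1 was detected in 16.1% (13 to 19.7) of 5830411N06Rik-positive skin Vγ4 cells and in 18.8% (15.9 to 21.9) of negative cells, intervals that overlap. Thinned to 1000 UMIs the shares were 9.94% (6.98 to 13.6) of 5830411N06Rik-positive and 15.0% (12.5 to 17.9) of negative cells, lower in the positive cells with intervals that still overlap. Its level was 132 CPM in 5830411N06Rik-positive and 169 CPM in negative cells, a ratio of 0.784 (0.615 to 0.997) that was not called. At least 2 UMIs of each gene were found in 7 skin Vγ4 cells, of 55 with 2 of Cd163l1 and 180 with 2 of 5830411N06Rik. In the pool 5830411N06Rik was at 6.73 CPM in Cd163l1-positive and 29.6 CPM in Cd163l1-negative cells, which is 4.4-fold lower (2.21 to 9.11). That library mixes tissues, so tissue and receptor cannot be told apart there. Whether the strength of the separation differed between libraries was not tested.

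**Figure D2:**
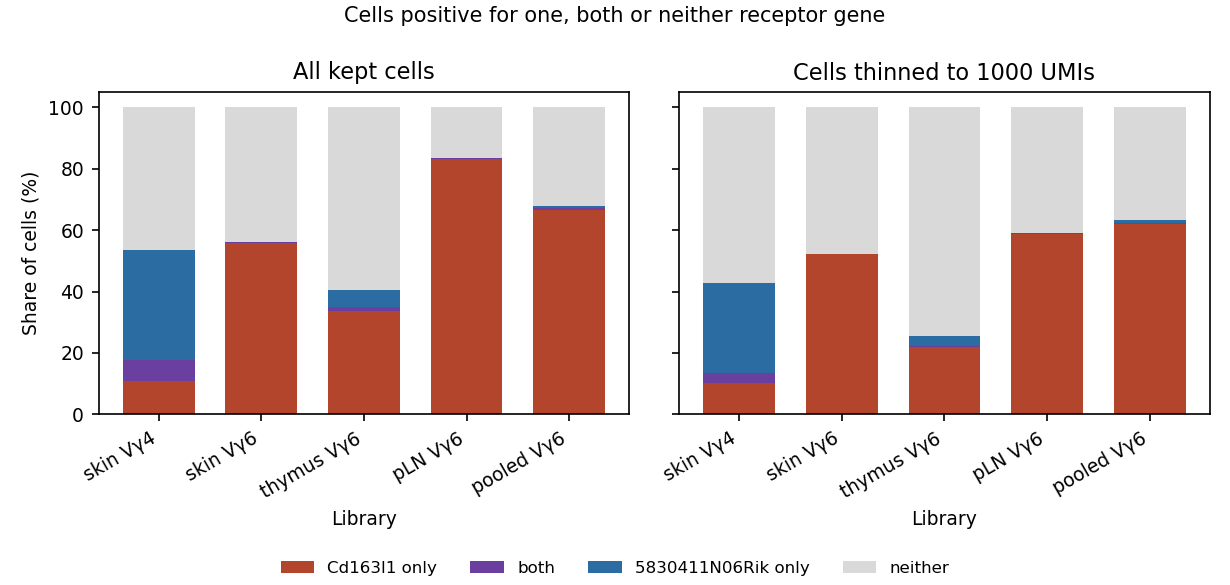
Percentage of cells of each library that had a UMI of Cd163l1 only, of both genes, of 5830411N06Rik only or of neither, over all kept cells and with each cell thinned to 1000 UMIs. Double-positive cells make up 6.88% of skin Vγ4 cells and 1.27% of thymus cells before thinning, and 3.23% of skin Vγ4 and 0.205% of thymus cells after it.

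To describe which transcripts accompany each receptor, positive and negative cells of the same library were set against each other, without the UMIs of the dividing gene. From counting error alone, up to 1 in 20 unchanged genes has a 95% interval that leaves out 1. Uneven spread of UMIs over cells, which the intervals do not cover, can raise that share. The share of all genes called over all kept cells is therefore given for each split beside its counts of list members. Counts under alternatives carry no share of their own, and the calls over all genes moved with the setting. Lists of genes were read by the number of members called and by their median log2 ratio, with 1 CPM added.

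Thymus cells with Cd163l1 carried the IL-17 programme. Of its 29 listed genes 28 were measured, 25 were higher in the 881 Cd163l1-positive than in the 1636 Cd163l1-negative cells and 0 were lower, where 2.96% of 5335 genes were called higher. The median log2 ratio of the list was 2.18, against -0.05 over all measured genes. With cells thinned to 1000 UMIs 22 of its members were higher, and without dividing barcodes 24 were. Those not called were Zbtb16, Lgals3 and Ramp1.

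Cytokine genes were among them. Il22 stood at 269 CPM in Cd163l1-positive and 27.2 CPM in Cd163l1-negative thymus cells, 9.89-fold higher (8.10 to 12.2), and was detected in 13.6% of positive and 3.85% of negative cells. Il17a was at 61.2 CPM in positive and 7.17 CPM in negative cells, 8.54-fold higher (5.73 to 13.1), and Il17f at 25.2 CPM in positive and 2.39 CPM in negative cells, 10.6-fold higher (5.37 to 23.1). These transcripts were thus seen mainly, but not solely, in cells with the receptor.

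Receptors for the signals that feed this programme moved alongside. Il23r, the IL-23 receptor, was at 114 CPM in Cd163l1-positive and 16 CPM in Cd163l1-negative thymus cells, 7.15-fold higher (5.46 to 9.49). Ccr2, a receptor for inflammatory chemokines, was at 239 CPM in positive and 44.0 CPM in negative cells, and Cxcr6, a tissue-homing chemokine receptor, at 686 CPM in positive and 164 CPM in negative cells. Serpinb1a, an inhibitor of neutrophil proteases, was at 441 CPM in positive and 83.9 CPM in negative cells, 5.26-fold higher (4.66 to 5.96). The transcription factor gene Maf, at 118 CPM in positive and 47.1 CPM in negative cells, was also called higher. Outside the list Ly6a, a marker of activated lymphocytes also called Sca-1, was at 572 CPM in positive and 114 CPM in negative cells and Klrk1, the NKG2D receptor, at 175 CPM in positive and 44.4 CPM in negative cells. Klrk1 was the only 1 of 10 measured type 1 and cytotoxic genes called higher. Xcl1 and Fcer1g of that list were lower, and its median log2 ratio was -0.66.

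Genes lower in Cd163l1-positive thymus cells were fewer, 0.694% of those measured. Dusp10, a phosphatase of stress kinases, was at 143 CPM in Cd163l1-positive and 316 CPM in Cd163l1-negative cells, 2.20-fold lower (1.96 to 2.49). Ccr7, the homing receptor for lymph nodes, was at 74.4 CPM in positive and 167 CPM in negative cells, and Ms4a4b, a membrane protein of resting T cells, at 391 CPM in positive and 805 CPM in negative cells. Of 18 measured early T cell genes 0 were called, with a median log2 ratio of -0.73. Thinning made 13 of them lower, and so did leaving out dividing barcodes. Of 10 measured circulation genes 2 were lower, and 5 under either alternative. In the whole split, thinning raised the calls to 298 higher and 293 lower, against 158 higher and 37 lower without it. Leaving out dividing barcodes gave 300 higher and 320 lower. The rise in lower members of both lists thus came with a rise over all genes. Of 12 genes of the T cell receptor complex 0 were called, and the activation list had 2 of 16 higher, Fosb at 50.01 CPM in positive and 14.8 CPM in negative cells and Areg at 52.5 CPM in positive and 15.8 CPM in negative cells. Depth and division were close between the sides, with median UMIs of 2292 in positive and 2072.5 in negative cells and dividing barcodes at 51.6% of positive and 54.8% of negative cells. Without barcodes that had at least 2 markers of another cell type, 25 of 28 IL-17 genes were higher.

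Cells with more Cd163l1 UMIs showed larger differences. Il22 was at 27.2 CPM in thymus cells with 0 UMIs of Cd163l1, 113 CPM with 1, 166 CPM with 2 and 628 CPM with 3 or more. Serpinb1a was at 83.9, 227, 516 and 780 CPM over the same 1636, 423, 191 and 267 cells. Sox4, a factor of immature lymphocytes, was at 345, 284, 158 and 87.5 CPM, and Ccr9, a receptor of thymocytes and gut-homing cells, at 196, 175, 95.4 and 55.4 CPM. By 0, 1, and 2 or more UMIs of 5830411N06Rik, over 2346, 134 and 37 cells, Il22 was at 122, 45.0 and 20.2 CPM, Sox4 at 283, 402 and 496 CPM and Ccr9 at 162, 259 and 313 CPM. The order of these genes along one receptor was thus the reverse of that along the other. The intervals of cells with 1 and with 2 or more UMIs of 5830411N06Rik overlapped for each of these genes.

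**Figure D3:**
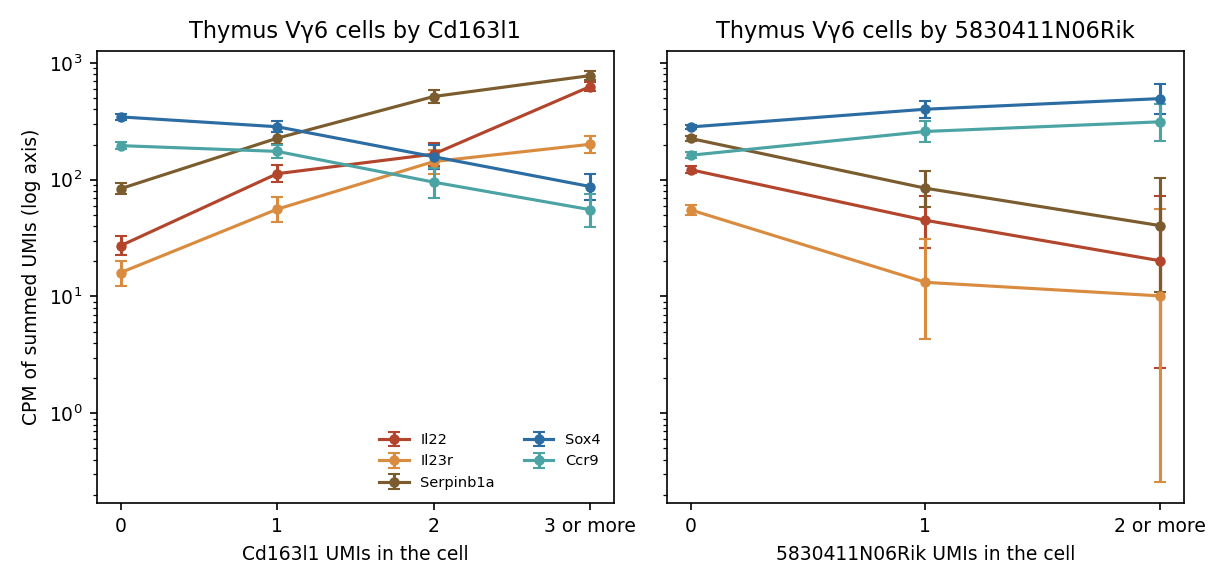
Levels of 5 genes in thymus Vγ6 cells, in CPM on a log axis with exact Poisson 95% intervals, by the number of UMIs of Cd163l1 (left) or of 5830411N06Rik (right) in the cell. Il22, Il23r and Serpinb1a are higher with more Cd163l1 UMIs and lower with more 5830411N06Rik UMIs, and Sox4 and Ccr9 run the other way.

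Thymus cells with 5830411N06Rik had lower levels of many IL-17 genes. Of 25 measured list genes 16 were lower and 0 higher in the 171 5830411N06Rik-positive than in the 2346 negative cells, where 2.17% of 5446 genes were called lower. The list's median log2 ratio was -1.34, against 0.02 over all genes. Thinned cells gave 11 lower, cells without dividing barcodes 15 and cells without barcodes with other markers 16. Il22 was at 39.8 CPM in 5830411N06Rik-positive and 122 CPM in negative cells, Il23r at 12.6 CPM in positive and 55.1 CPM in negative cells, and Serpinb1a at 75.5 CPM in positive and 226 CPM in negative cells, 2.99-fold lower (2.15 to 4.29). Ly6a was 3.37-fold lower (2.48 to 4.70), Cxcr6 3.02-fold lower (2.33 to 3.97) and Klrk1 4.66-fold lower (2.52 to 9.77).

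Gzma, the protease granzyme A, went the other way. It was at 1394 CPM in 5830411N06Rik-positive and 640 CPM in negative thymus cells, 2.18-fold higher (2.00 to 2.37), and was detected in 50.9% of positive and 36.1% of negative cells. Along the UMIs of 5830411N06Rik it was at 640, 1539 and 839 CPM, so it was not highest in the cells with most of the receptor. Gzma was the only 1 of 10 measured type 1 and cytotoxic genes called higher, and 3 were lower. These were Klrk1, Xcl1 at 8.38 CPM in positive and 28.9 CPM in negative cells, and Gzmb at 25.2 CPM in positive and 52.0 CPM in negative cells. Txnip, a thioredoxin-binding protein lowered by growth signals, was at 60.8 CPM in positive and 24.1 CPM in negative cells, 2.52-fold higher (1.63 to 3.77). Other genes called higher, with 1.51% of genes in that direction, were Siah1a, Pcmtd2, Chst2, Msl2, Gdap10 and Ostm1, at ratios of 2.03 to 2.49. Of 18 measured early T cell genes and 10 circulation genes 0 were called in either direction. Dividing barcodes made up 54.4% of 5830411N06Rik-positive and 53.6% of negative cells.

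Single-positive thymus cells were then set against each other. The 849 cells with Cd163l1 alone had Il22 at 275 CPM from 636 UMIs, against 8.04 CPM from 3 UMIs in the 139 cells with 5830411N06Rik alone, a ratio of 34.1 (11.6 to 166). Il17a was at 63.1 CPM in the first and had 0 UMIs in the second, a ratio with an exact interval from 6.29 upward. Klrk1 was at 181 CPM with Cd163l1 alone and 13.4 CPM with 5830411N06Rik alone and S100a6, a calcium-binding protein of activated cells, at 1897 CPM with Cd163l1 alone and 330 CPM with 5830411N06Rik alone. Of 9 measured type 1 and cytotoxic genes 2 were higher, Klrk1 and Gzmb, and 1 was lower, Gzma. The IL-17 list had 25 of 28 members higher, where 4.82% of 5516 genes were, and 21 when thinned. The early T cell list had 9 of 18 lower, where 4.12% of genes were, with Cd28 at 141 CPM with Cd163l1 alone and 346 CPM with 5830411N06Rik alone, Ccr9 at 124 CPM with Cd163l1 alone and 303 CPM with 5830411N06Rik alone and Satb1, a chromatin organiser of thymocytes, at 188 CPM with Cd163l1 alone and 432 CPM with 5830411N06Rik alone. Thinned cells gave 16 of its members lower, where 344 genes in all were lower, against 227 without thinning. The circulation list had 6 of 11 lower, among them Foxp1, a factor of T cell quiescence, at 120 CPM with Cd163l1 alone and 314 CPM with 5830411N06Rik alone. Of the activation list 3 of 16 were higher, Junb at 1463 CPM with Cd163l1 alone and 676 CPM with 5830411N06Rik alone, Fos at 187 CPM with Cd163l1 alone and 88.5 CPM with 5830411N06Rik alone and Fosb. These cells are the same as in the splits above, so this is no separate evidence.

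In the periphery, where negative cells can hold undetected Cd163l1, its detection went with few differences in the IL-17 list. In skin Vγ6, 2 of its 27 measured genes were higher and 0 lower in the 385 positive than in the 302 negative cells, where 1.54% of 5003 genes were called higher and 1.84% lower. Il17f was at 1374 CPM in positive and 460 CPM in negative cells, 2.99-fold higher (2.50 to 3.61), and was detected in 20.3% of positive and 12.3% of negative cells. Il22 was at 214 CPM in positive and 60.2 CPM in negative cells, 3.55-fold higher (2.16 to 6.14), whereas Il17a, at 706 CPM in positive and 542 CPM in negative cells, was not called at a ratio of 1.30. Gm7120, which was also called higher here, was at 383 CPM in positive and 174 CPM in negative cells, 2.20-fold (1.62 to 3.03). The type 1 list had 3 of 10 genes lower, Ccl5, Nkg7 and Fcer1g, which rest on few cells. Ccl5 was detected in 5.45% of positive and 4.30% of negative cells, and Nkg7 in 2.60% of positive and 6.29% of negative cells. Fcer1g was detected in 2.60% of positive and 4.30% of negative cells.

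Dendritic markers moved with this split. Cd74, the invariant chain of MHC class II, was at 168 CPM in Cd163l1-positive and 767 CPM in negative skin Vγ6 cells although it was detected in 13.8% of positive and 13.6% of negative cells, and the dendritic list summed to 205 CPM in positive and 1293 CPM in negative cells. Without barcodes that had at least 2 markers of another type, Cd74 was at 166 CPM in positive and 158 CPM in negative cells and was not called. Cd74 is itself a dendritic marker that this filter uses, so its change is in part built into the filter. Il17f kept a ratio of 3.03 (2.52 to 3.67), Il22 of 3.53 (2.15 to 6.10) and Gm7120 of 2.22 (1.63 to 3.06). The filter does not use these genes.

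In pLN and in skin Vγ4 no IL-17 gene was called with Cd163l1. In pLN 0 of 26 measured genes were called in either direction between the 1217 positive and 241 negative cells, with a median log2 ratio of -0.18, where 1.7% of 5537 genes were higher and 1.77% lower. Detection of Cd163l1 in pLN rose with depth, from 71.8% to 94.7% of cells, so many negative cells may hold it undetected. The split therefore cannot show that the IL-17 list is unrelated to Cd163l1 there. The genes ranked highest in positive pLN cells included several of dividing cells. The histone gene Hist1h2ap was at 442 CPM in positive and 152 CPM in negative cells. Cdc20, an activator of mitotic exit, was at 101 CPM in positive and 38.0 CPM in negative cells. Of 16 measured cell cycle markers, 4 were called higher and 0 lower. Barcodes marked as dividing moved with the split, at 73.7% of positive and 59.3% of negative ones. Depth, which makes that mark easier to meet, moved too, with medians of 1927 UMIs in positive and 1399 in negative cells. Hist1h2ap and Cdc20 turned to log2 ratios of -0.93 and -0.31 when cells were thinned. The early T cell list had 4 of 10 genes lower, 1 when thinned and 0 without dividing barcodes. In skin Vγ4 0 of 25 measured IL-17 genes were called between 208 positive and 970 negative cells, where 1.45% of 4895 genes were higher and 1.7% lower. Its 3 highest genes by the ranking rule were Nfkbil1, Pdlim7 and Nek7, at ratios of 2.53, 2.32 and 2.10. The share of Cd163l1-positive cells in this library lay within the background interval given above, which rests on too few barcodes to tell the share from background.

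In the pool, many genes of the IL-17 list were higher with Cd163l1 and most early T cell genes were lower. Of 29 IL-17 genes 19 were higher and 0 lower in 1346 Cd163l1-positive than in 660 Cd163l1-negative cells, where 2.76% of 5872 genes were higher. The median log2 ratio was 1.13, and 3 members were higher when cells were thinned and 11 without dividing barcodes. Il17a was at 329 CPM in positive and 92.2 CPM in negative cells, 3.57-fold higher (2.83 to 4.55). Of 18 early T cell genes 16 were lower, where 5.14% of genes were, with Ccr9 at 17.3 CPM in positive and 162 CPM in negative cells, 9.34-fold lower (6.44 to 13.9), Sox4 at 35.6 CPM in positive and 224 CPM in negative cells and Lef1, a Wnt pathway factor of early T cells, at 50.5 CPM in positive and 297 CPM in negative cells. The type 1 list had 11 of 14 genes lower, with Nkg7, a granule protein, at 163 CPM in positive and 810 CPM in negative cells and Xcl1, a chemokine, at 15.4 CPM in positive and 236 CPM in negative cells. Of the other SRCR genes Cd5 and Cd6 were lower, with and without barcodes with other markers, and Marco, a macrophage receptor, was lower over all cells and not called without those barcodes, at 3 UMIs in positive and 2 UMIs in negative cells. Median UMIs were 1391.5 in positive and 1099 in negative cells, and dividing barcodes 7.65% of positive and 14.5% of negative cells. Markers of other cell types moved with this split. Natural killer cell markers summed to 13.5 CPM in positive and 143 CPM in negative cells, macrophage markers to 113 CPM in positive and 271 CPM in negative cells, dendritic markers to 1010 CPM in positive and 1804 CPM in negative cells and αβ T cell or thymocyte markers to 8.66 CPM in positive and 54.7 CPM in negative cells. Without barcodes with at least 2 other markers, 18 of 29 IL-17 genes were higher, and 16 of 18 early T cell and 11 of 14 type 1 genes were lower.

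**Figure D4:**
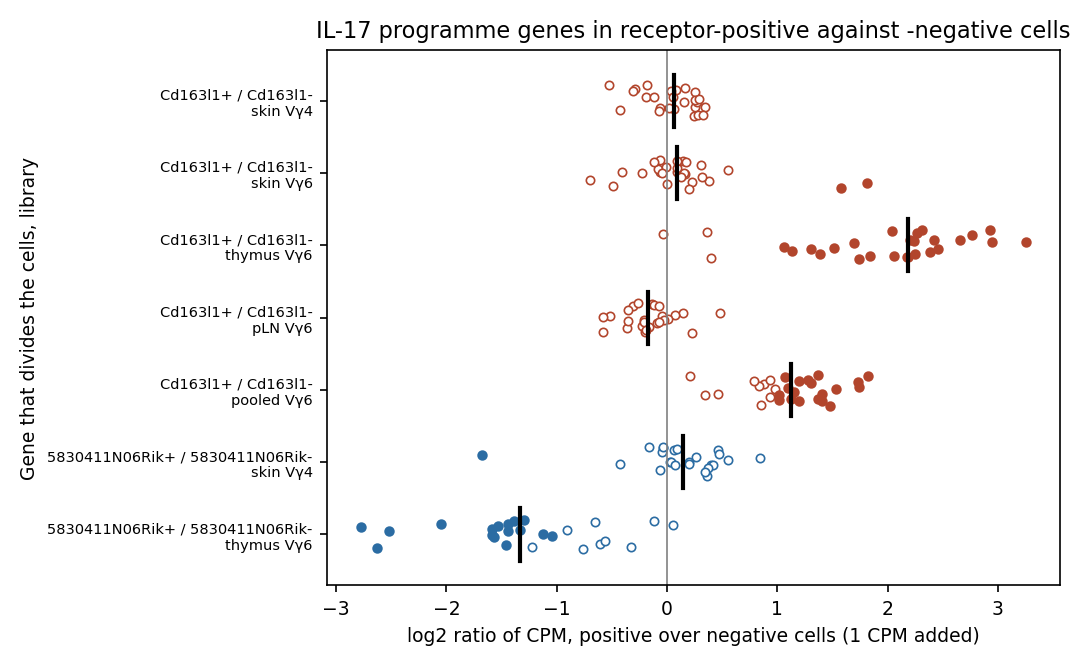
Log2 ratio, with 1 CPM added, of each measured gene of the IL-17 programme in positive over negative cells, for the 5 splits by Cd163l1 and the 2 by 5830411N06Rik. Filled points passed the call rule, open points did not, and the black bar is the list's median, which is 2.18 for Cd163l1 in thymus and -1.34 for 5830411N06Rik in thymus.

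In skin Vγ4, where 5830411N06Rik was most abundant, the IL-17 list had 1 call and the early T cell list 5. No IL-17 gene of 24 was higher in the 502 positive than in the 676 negative cells and 1 was lower, Aqp3, a water and glycerol channel that keratinocytes also carry, at 38.3 CPM in positive and 125 CPM in negative cells. Over all 4851 genes 0.618% were higher and 2.89% lower. Il17f was at 3575 CPM in positive and 2712 CPM in negative cells and Il17a at 647 CPM in positive and 439 CPM in negative cells, ratios of 1.32 and 1.47 that were not called. Gm7120 was at 596 CPM in positive and 271 CPM in negative cells, 2.20-fold higher (1.90 to 2.55), and was detected in 38.0% of positive and 31.4% of negative cells. Across cells with 0, 1, and 2 or more UMIs of 5830411N06Rik it was at 271, 700 and 438 CPM.

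Keratinocyte markers were lower in 5830411N06Rik-positive skin cells. All 8 measured genes of that list were called lower, its summed level being 318 CPM in positive and 2219 CPM in negative cells, with Krt1 and Lor at 0 UMIs. The 1 measured mast cell marker and both measured neutrophil markers were lower as well. Sfn, an epithelial 14-3-3 protein, was at 155 CPM in positive and 587 CPM in negative cells, 3.8-fold lower (3.15 to 4.61), although it was detected in 19.7% of the cells on either side. Without barcodes that had at least 2 markers of another cell type, Sfn was at 121 CPM in positive and 124 CPM in negative cells and Aqp3 at 43.0 CPM in positive and 57.2 CPM in negative cells, neither called. Sfn is itself a keratinocyte marker that this filter uses, so its change is in part built into the filter. The whole split then had 48 genes higher and 68 lower, against 30 higher and 140 lower with these barcodes. Gm7120 then had a ratio of 2.35 (2.01 to 2.74). Gzma, at 32.5 CPM in positive and 153 CPM in negative cells in all cells, was still lower at 37.6 CPM in positive and 169 CPM in negative cells, and so were Plac8 at 12.1 CPM in positive and 66.9 CPM in negative cells and Cd24a, found on immature T cells and on keratinocytes, at 17.5 CPM in positive and 60.4 CPM in negative cells. Of 12 early T cell genes 5 were lower with and without these barcodes, 2 when thinned and 3 without dividing barcodes.

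Sfn and Gm7120 also differed between the single-positive cells of skin Vγ4. Sfn was at 542 CPM in the 127 cells with Cd163l1 alone and 153 CPM in the 421 with 5830411N06Rik alone. Without barcodes with other markers, a filter that uses Sfn itself, it was at 149 CPM with Cd163l1 alone and 119 CPM with 5830411N06Rik alone, not called. Gm7120 was at 253 CPM with Cd163l1 alone and 581 CPM with 5830411N06Rik alone, 2.3-fold lower (1.73 to 3.12), and 2.63-fold lower (1.92 to 3.70) without those barcodes. Of 26 measured IL-17 genes 1 was higher, Aqp3, where 2.97% of 4988 genes were higher and 1.28% lower.

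In the authors' clusters of Vγ6 cells the receptors were highest in different clusters. These clusters come from the same series, so this is no separate evidence. In the authors' deposited table of cluster means, whose columns sum to 10000, Cd163l1 was at 11 in Thy_2, 10.7 in pLN_1, 8.16 in Skin, 6.73 in pLN_2, 0.727 in Thy_4, 0.631 in Thy_1, 0.374 in Thy_5 and 0.319 in Thy_3. 5830411N06Rik in the authors' deposited table was at 0.638 in Thy_1, 0.381 in Thy_5, 0.149 in Thy_3, 0.129 in Thy_4, 0.0437 in Thy_2, 0.0310 in Skin, 0.0190 in pLN_2 and 0.0169 in pLN_1. So 1 of the 5 thymus clusters, Thy_2, had Cd163l1 at the level of the peripheral clusters and 5830411N06Rik near theirs. The table gives no spread, so neighbours in these orders cannot be told apart. The authors' deposited table of markers listed Cd163l1 in 83.3% of Thy_2 cells, against 44.0% of other cells, and in 13.1% of Thy_1 cells, against 66.1%. For 5830411N06Rik the authors' deposited table of markers listed 9.6% of Thy_1 cells, against 1.2% of others, and 9.1% of Thy_5 cells, against 3.6%.

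The genes whose cluster means were most like those of Cd163l1, by Pearson r of log2(value + 0.1) over 8 columns among 4095 genes, were Serpinb1a at 0.99, Tnfrsf25, Stk24, Cryba4 and Il23r at 0.98, and Osbpl3, Tmem176a and Il1r1 at 0.97. Serpinb1a was at 8.80 in Thy_2 and 0.446 in Thy_1 of the authors' deposited table. Those most like 5830411N06Rik were Trim13 at 0.99, 1190002N15Rik at 0.98, St8sia1 at 0.97 and Ttc3, Itfg1, P2ry14, Frat2 and Actn1 at 0.96. Frat2, a GSK3-binding activator of Wnt signals, was at 3.27 in Thy_1 and 0.335 in Thy_2 in the authors' deposited table. Between the receptor genes themselves r was -0.82. These columns share libraries and processing, so r is a description over few points.

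**Figure D5:**
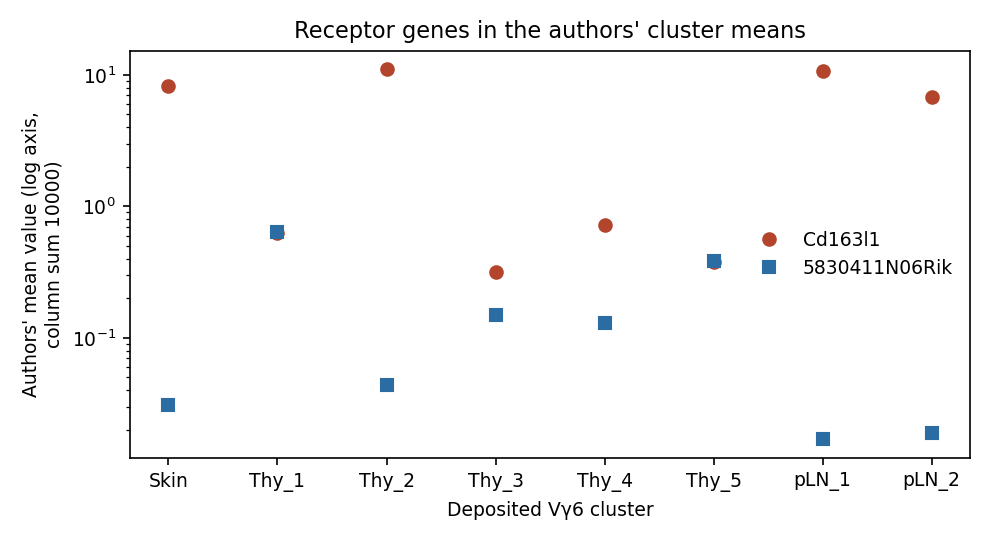
Mean expression of both receptor genes in the 8 Vγ6 clusters of the authors' deposited table, on a log axis, with no error available. Cd163l1 is between 6.73 and 11 in the pLN and Skin clusters and Thy_2 and below 0.8 in the other thymus clusters, whereas 5830411N06Rik is highest, at 0.638, in Thy_1.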

How the data were processed

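UMIs were counted per gene and cell in 5 libraries, one per group. The authors deposited raw UMI counts with no normalization. Cell Ranger 2.0, Seurat 2.3 and the build mm10 are named in the submitters' processing notes, without their roles. The authors' deposited cluster table holds normalized means in another unit, scaled so that each of 8 columns sums to 10000, over 10721 genes, and the authors' deposited marker table (26092 rows) holds shares of cells, with natural log fold changes and p-values over cells that the authors computed before deposit and that are not used here.

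From these, UMIs of cells that passed the filters in the report (200 genes, 10% mitochondrial) were summed and compared with exact intervals. Genes with 20 CPM on either side counted as measured. Positive cells had at least 1 UMI of the gene, and splits needed 50 cells per side. Thinning drew 1000 UMIs per cell without replacement (seed 7), and positive cells were called again after it. Named genes were the 8 highest and 8 lowest per split by the interval bound nearest to 1, among genes in at least 10% of cells on the higher side, with up to 4 called members per list. Other genes given in the text are list members or markers that were chosen after their values were seen. The 2 genes and the 7 lists were chosen with earlier results of these data known. Promoters came from RefSeq and genes from GENCODE M21. Steps ran in Python 3.11.15 with numpy 2.4.6, scipy 1.17.1, pandas 2.3.3 and matplotlib 3.10.9. Calls and intervals were tested on simulated data that held counting error only. Alternatives changed filters, depth, dividing cells, other cell types and scaling.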

Additional observations from a re-analysis of the deposited data

Results flagged for a closer look

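Some genes were called in opposite directions by the same split in different libraries, and the difference between libraries was not tested for any of them. Gzma had a ratio of 2.62 in Cd163l1-positive over Cd163l1-negative cells of skin Vγ4, 0.450 in pLN and 0.262 in the pool. In skin Vγ4 it was detected in 2.88% of positive and 2.99% of negative cells, and its log2 ratio was -2.14 when cells were thinned. Split by 5830411N06Rik, Gzma was at a ratio of 2.18 in thymus and 0.213 in skin Vγ4.

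Hist1h2ap, a histone gene of dividing cells, was at a ratio of 2.91 for Cd163l1 in pLN and 0.191 in the pool, where dividing barcodes were 73.7% of positive and 59.3% of negative pLN cells and 7.65% of positive and 14.5% of negative pool cells. Hmgn2, a nucleosome-binding protein, was at 2.00 in skin Vγ6 and 0.498 in the pool. Hspa1a, an inducible heat shock protein, was at 2.62 in thymus and 0.416 in pLN.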

How the results depend on the processing

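Of 74 ratios of the receptor genes between libraries under alternatives, 57 moved by less than the counting interval and 17 by more. The log2 ratio of Cd163l1 in skin Vγ6 over pLN, 0.03, was -0.29 without barcodes with markers of other cell types, -0.42 without dividing barcodes, -0.14 without the top 5% of barcodes by UMIs, -0.35 with thinned cells, -0.27 as a mean over cells, 0.22 with TMM and 0.30 with median-of-ratios scaling. The median of all genes in this pair was at -0.38, -0.19 and -0.11 under library total, TMM and median of ratios. In pLN, 414 of 1458 kept cells had at least 2 dendritic markers, while Cd3g was detected in 98.8% of all kept pLN cells. The pLN barcodes left out for other markers thus included many with T cell transcripts. This holds for each value here that leaves them out in pLN. In thymus over pLN, Cd163l1 at -1.40 was -1.31 with at least 500 genes and at most 5% mitochondrial UMIs, -1.68 without other markers, -1.29 without dividing barcodes, -1.52 as a mean over cells and -1.29 with TMM. In skin Vγ6 over thymus, at 1.43, it was 0.87 without dividing barcodes, which ends the call, 1.13 thinned, 1.25 as a mean over cells and 1.67 with median of ratios. In skin Vγ4 over skin Vγ6, at -2.33, the stricter filter gave -2.68.

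Counts of called genes in splits moved by over 1.5 times in 18 of 54 cases. For Cd163l1, thinning turned 71 higher genes into 117 in skin Vγ4, 158 higher and 37 lower into 298 and 293 in thymus, and 162 higher into 96 in the pool. Leaving out dividing barcodes gave 60 for 94 higher genes in pLN, and 300 higher and 320 lower in thymus. The genes called could differ more than their counts, since only 3 of those 94 pLN genes were among the 60. Of the genes called higher, thinning kept 4 of 94 in pLN, 17 of 71 in skin Vγ4 and 13 of 77 in skin Vγ6. It kept 139 of 158 in thymus. For 5830411N06Rik, thinning turned 30 higher and 140 lower into 64 and 80 in skin Vγ4 and 82 higher into 191 in thymus, where leaving out dividing barcodes gave 175. Of those 82 thymus genes, 17 were still called higher when thinned and 20 without dividing barcodes. Between single-positive cells, thinning turned 148 higher into 86 in skin Vγ4 and 227 lower into 344 in thymus, and leaving out dividing barcodes gave 417. Without other markers there were 156 higher in pLN for Cd163l1, 48 higher and 68 lower in skin Vγ4 for 5830411N06Rik, and 97 higher between single-positive skin Vγ4 cells. The cause was not tested. Of 135 shares of cells 52 moved beyond their interval, and of 196 counts of list members 50 moved by over 1.5 times.

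Of 364 values of named genes 247 kept their call, 102 lost it and 15 reversed. On the log2 scale the reversals were, thinned, Gzma at -2.14 for Cd163l1 in skin Vγ4, Hmgn2 at -0.98 in skin Vγ6 (-0.24 without dividing barcodes), and in pLN Acsl5 at -0.30, Cdc20 at -0.31, Cks1b at -0.088, Diaph3 at -0.29, Fbxo5 at -1.18, Hist1h2ae at -0.38, Hist1h2ap at -0.93 and Itm2a at 0.24. Lef1 in pLN was at 0.33 without dividing barcodes. Between single-positive skin Vγ4 cells, thinned, Cd24a was at -0.057, Gzma at -0.46 and Plac8 at -0.44. Few cells and UMIs limit these values, above all for 5830411N06Rik in Vγ6 cells of skin and pLN, which had 2 and 6 UMIs. No paired analysis was possible because each group has 1 library. The single-positive comparison, and leaving out barcodes with other markers within splits, were chosen after seeing the data.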
